A study of Homo sapiens with 2 samples.

Results

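Long unnamed assembled loci are stretches of the genome where transcripts were assembled from aligned reads, but to which no gene name was attached. They were taken from both deposited tables as the loci with no gene name that spanned more than 500 bases, on contigs with plain names, which leaves out alternate haplotypes and unplaced contigs. By this rule 2970 of 30971 loci belonged to the set in the EV table and 2998 of 30543 in the PRSS35 table, which is 71.7% and 80.3% of the unnamed loci of each. Every unnamed locus of both tables lay on such a contig, so the contig condition removed none, and the length condition removed 1173 in EV and 735 in PRSS35. The name and the length chose the members, and neither is a result below.

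RNA came from human PLC liver cancer cells, an established line. They carried the pCDH empty vector (EV, labelled WT) or stably expressed human PRSS35, a secreted serine protease, from the same vector. By the paper's methods, stable cells were made by lentiviral infection and selected with puromycin. No further treatment of these cells is given. Whether the stable cells are 1 clone or a pool is not given in the sources used here. Each condition has 1 library, so no difference has a replicate check, no p-value is given, and the condition and the library cannot be told apart. PRSS35 itself had an FPKM (fragments scaled by transcript length and library depth) of 0.643 in EV and 1836 in PRSS35. The hepatocyte genes APOA1, SERPINA1, AFP, APOB, ALB and TTR were above 1 FPKM in both libraries, although albumin and transthyretin stayed below 6 FPKM, whereas PTPRC, the pan-leukocyte marker, was listed at 0, the endothelial PECAM1 at 0.008 and the fibroblast collagen COL1A1 below 1 FPKM in both.

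An assembler such as Cufflinks joins overlapping reads into transcripts and compares them with an annotation, and what matches no annotated gene keeps only a position. Such loci can be noncoding RNA genes that the annotation lacks, transcripts that start upstream of a promoter on the other strand, RNA that runs on past the end of a gene, retained introns or copies of processed genes. The tables give neither the strand nor the exons of these loci, so these kinds were described only by position.

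Stretches of 5 loci are shown because the results turn on them: they are among the most abundant, the most changed or the longest pairs, and they show how much of the sequence is found once in the genome and how much is repeated. Each is read from GRCh37, the assembly of the files, along the strand of the annotated exon it lies in, or along the plus strand where no annotated exon was present, since the transcribed strand is not known. Capitals mark bases that lie in at least 1 window of 32 bases found once in GRCh37 on either strand, and lower case marks bases whose windows all occur again elsewhere.
PSPHP1 locus, chr7:55840874-55840981, plus strand: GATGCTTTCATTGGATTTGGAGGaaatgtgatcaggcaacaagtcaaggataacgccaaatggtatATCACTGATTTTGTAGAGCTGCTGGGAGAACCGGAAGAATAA
Locus without annotation, chr2:13659606-13659805, plus strand: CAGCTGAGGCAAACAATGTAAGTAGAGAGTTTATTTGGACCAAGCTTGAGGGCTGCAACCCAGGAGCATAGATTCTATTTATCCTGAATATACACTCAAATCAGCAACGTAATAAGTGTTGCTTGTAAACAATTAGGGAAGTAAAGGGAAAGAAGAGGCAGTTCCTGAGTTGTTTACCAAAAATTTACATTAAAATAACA
NBPF-region locus, chr1:147931177-147931376, plus strand, exon of ENSG00000280649: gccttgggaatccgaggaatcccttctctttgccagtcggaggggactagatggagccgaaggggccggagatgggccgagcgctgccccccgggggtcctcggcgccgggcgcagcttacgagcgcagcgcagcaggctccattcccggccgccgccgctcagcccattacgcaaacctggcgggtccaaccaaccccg
MAPK9-adjacent locus, chr5:179720188-179720387, plus strand, exon of ENSG00000248367: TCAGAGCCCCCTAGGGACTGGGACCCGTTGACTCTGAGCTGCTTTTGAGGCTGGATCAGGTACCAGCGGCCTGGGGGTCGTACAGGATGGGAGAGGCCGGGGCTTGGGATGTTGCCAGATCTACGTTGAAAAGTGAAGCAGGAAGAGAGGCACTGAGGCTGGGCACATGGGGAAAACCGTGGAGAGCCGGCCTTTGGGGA
HMGN2P11 locus, chr7:84505971-84506170, plus strand: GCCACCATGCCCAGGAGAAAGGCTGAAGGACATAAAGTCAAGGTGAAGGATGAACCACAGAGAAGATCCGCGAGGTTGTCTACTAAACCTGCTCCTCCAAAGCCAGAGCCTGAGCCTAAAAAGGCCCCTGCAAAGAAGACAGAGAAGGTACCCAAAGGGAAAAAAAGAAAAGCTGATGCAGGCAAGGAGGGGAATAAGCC

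The stretches differ in how far reads can be assigned to them. All 200 printed bases of the chromosome 2, MAPK9-adjacent and HMGN2P11 stretches lay in windows found once. Of the 108 bases of PSPHP1, 65 did (60.2%). None of the 200 bases of the NBPF-region stretch did, so a read of window length from it matches more than 1 place in the genome.

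Long unnamed loci were weakly expressed. The median FPKM was 1.08 in EV, with quartiles of 0.752 and 1.69, and 0.960 in PRSS35, with quartiles of 0.657 and 1.59. For comparison, named loci above 0 had a median of 3.66 in EV and 3.65 in PRSS35. No long unnamed locus was listed at 0 in either library, against 41.9% and 40.9% of named loci, which follows from how a locus enters the table: an assembled locus exists only where there are reads. An FPKM of at least 5 was reached by 175 members (5.89%) in EV and 169 (5.64%) in PRSS35, and at least 20 by 21 and 24. In sum the members held 0.239% of all FPKM in EV and 0.374% in PRSS35. Short unnamed loci held 65.1% of the FPKM sum in EV and 44.5% in PRSS35, so the larger share of the members in PRSS35 went with a smaller total. The summed FPKM of the members themselves was 5889 in EV and 5649 in PRSS35.

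Few fragments stood behind most of these values. The deposited interval around an FPKM implies a number of fragments, the square of 2 times the FPKM over the distance to the upper bound, and by this estimate a member rested on a median of 20 fragments in each library. Under 20 fragments were implied for 50.6% of members in EV and 49.4% in PRSS35, and at least 100 for 224 and 244. The lower bound was 0 for 34 members in EV and 36 in PRSS35. For such members the estimate is no count of fragments, and it fell as low as 2.65e-10 in EV and 5.24e-10 in PRSS35. Calibrated on annotated single-exon genes, the libraries were equally deep, at 31458300 fragments in EV and 31541200 in PRSS35.

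Members were mostly short and compact, with a small number of very long spans. The median span was 954 bases in EV and 1043 bases in PRSS35, and the longest were 233623 and 232412 bases. Spans above 10000 bases were found for 40 members in EV and 54 in PRSS35, and above 100000 bases for 5 in each. The transcript length behind an FPKM can be estimated from the implied fragments. For spans up to 2000 bases its median was 0.997 times the span in both libraries, so that the transcript filled its span. For spans above 10000 bases the median estimated length was only 637 bases in EV and 814 bases in PRSS35, so that most of a long span was not in the transcript. Just above the length limit, at 501 bases, lay a locus inside LGALS8 on chromosome 1 with an FPKM of 2.83 in EV and a locus in MARVELD2 on chromosome 5 with 1.43 in PRSS35. Just below it, at 500 bases, lay unnamed loci with 6.39 on chromosome 1 in EV and 10.6 on chromosome 5 in PRSS35.

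Most members lay next to or within named genes. The median distance to the nearest named locus was 865.5 bases in EV and 893.5 bases in PRSS35. In EV 785 members (26.4%) overlapped a named locus, 749 lay within 1000 bases of one, 897 between 1000 and 10000 bases, 431 between 10000 and 100000 bases and 108 farther away. In PRSS35 the same classes held 787 (26.3%), 740, 907, 449 and 115. The spread over the classes was thus nearly the same in both libraries. With named loci at an FPKM of at least 1 only, the median distance was 2287 bases in EV and 2376 bases in PRSS35.

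The side of the named neighbor could be told where GENCODE gives its strand. Within 1000 bases, 369 members lay upstream and 317 downstream of the named locus in EV, and 377 and 291 in PRSS35. Between 1000 and 10000 bases the order turned, with 296 upstream and 505 downstream in EV, and 319 and 502 in PRSS35. Upstream members within 1000 bases were richer in G and C, with a median GC content of 56.6% against 47.9% for downstream members in EV and 55.0% against 46.9% in PRSS35. Their median share of repeated windows was 0.550% against 11.6% in EV and 1.87% against 10.9% in PRSS35. Upstream members within 1000 bases also had the higher median FPKM, 1.26 against 0.896 in EV and 1.05 against 0.822 in PRSS35. An FPKM of at least 5 was reached by 22 of the upstream members in each library, but by 8 downstream members in EV and 6 in PRSS35. Annotated exons of long noncoding RNA, with no protein-coding exon, were present in 119 of the upstream members and 26 of the downstream members in EV. In PRSS35 these counts were 137 and 28. Members over both kinds of exon are not in these counts.

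The GENCODE annotation on GRCh37 placed most members in genes. A member over several kinds of exon was counted once, as protein-coding first, then long noncoding RNA, then pseudogene. It was counted in an intron only where it met no exon. In EV 922 members overlapped an exon of a protein-coding gene, 654 an exon of a long noncoding RNA (lncRNA) and 89 an exon of a pseudogene, while 428 lay in an intron of a protein-coding gene, 155 in an intron of a lncRNA and 673 outside all annotated genes. In PRSS35 these counts were 915, 679, 92, 437, 171 and 661. Members outside annotated genes had a median FPKM of 1.01 in EV and 0.859 in PRSS35, and members at lncRNA exons 1.13 and 1.08. Paired members had the same annotation class in both libraries in 1454 of 1582 cases (91.9%).

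Members were spread unevenly over the chromosomes. Chromosome 19, a gene-dense chromosome, held most per megabase, 4.11 in EV and 3.79 in PRSS35, against 0.391 and 0.486 on chromosome 13. Set against the named loci with an FPKM of at least 1, chromosome 21 stood out, with 76 members to 104 such loci in EV, a ratio of 0.731, while chromosome 19 was at 0.326 and chromosome X at 0.169. By the sum over both libraries, the densest windows of 1 megabase were the end of chromosome 17, with 17 members in EV and 28 in PRSS35, a window on chromosome 21 with 17 and 19, the end of chromosome 9 with 18 and 17, and the start of chromosome 19 with 20 and 14.

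Repeated sequence was a minor part of most members. Over each span, the median share of windows of 32 bases that occur more than once in GRCh37 was 10.9% in EV and 11.1% in PRSS35. It was under 10% for 1453 and 1438 members and at least 90% for 55 and 61 members. The NBPF-region locus printed above belongs to the last group.

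Of the members, 1582 were found in both libraries as pairs that share more bases with each other than with any other member, which is 53.3% of the EV members and 52.8% of the PRSS35 members. A further 529 EV members and 464 PRSS35 members overlapped a named locus of the other table but no long unnamed one, 190 and 148 overlapped a long unnamed locus that had a better partner, and 49 and 68 met only a short unnamed locus. No locus of any kind lay at the position of 620 EV members (20.9%) and 736 PRSS35 members (24.5%). Depth moved with this: the unpartnered members had a median of 14.0 implied fragments in both libraries, against 25.8 in EV and 29.0 in PRSS35 for paired ones. The share paired was 34.6% and 29.3% under 15 fragments and 75.8% and 80.4% at 120 fragments or more. How far low depth accounts for the missing partners was not tested.

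**Figure D1:**
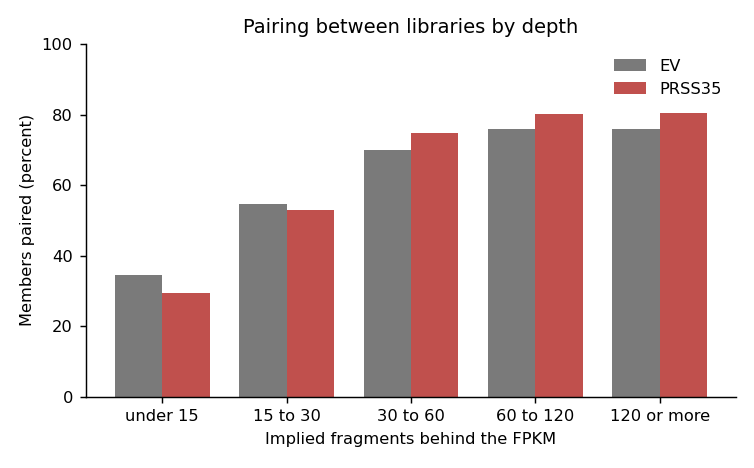
Share of long unnamed loci with a partner in the other library (y axis, percent) by the number of fragments implied by the deposited interval (x axis, classes), with gray bars for EV and red bars for PRSS35. The share climbs from 34.6% in EV and 29.3% in PRSS35 under 15 fragments to 75.8% and 80.4% at 120 or more.

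Some members with a high FPKM had no locus at all at their position in the other table. In PRSS35, a locus over ZNF768, a zinc finger gene, had an FPKM of 35.2 (interval 32.1 to 38.3) on chr16:30538120-30538872, 209 bases from the named ZNF768 locus. A RELA-DT locus, named for the divergent transcript beside the NF-kappaB subunit gene RELA, had 25.7 (18.3 to 33.1) on chr11:65433654-65439186, and a locus in RPL37A, a ribosomal protein gene, had 13.1 (8.54 to 17.7) on chr2:217385625-217394291. In EV, a C17orf114 locus beside PLD2, a phospholipase gene, had 17.4 (12.4 to 22.4) on chr17:4704454-4710314. A TDRD12 locus had 17.0 (7.90 to 26.1) on chr19:33281891-33285720, and a locus beside TIMM50, a subunit of the mitochondrial import machinery, had 12.3 (11.4 to 13.1) on chr19:39981997-39984422. Implied fragments ranged from 14.0 for TDRD12 to 814 for TIMM50, so these missing partners were not all at low depth. Being absent from a table means that no locus was assembled there, and is no measured level of 0.

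Spans of the pairs rarely matched exactly. Only 1 pair had the same start and end in both libraries, 197 pairs had both ends within 50 bases, and 1233 shared at least 50% of each locus. Over the pairs the ranks of FPKM in EV and PRSS35 had a Spearman correlation of 0.67 (n = 1582), and of 0.87 over the 444 pairs whose spans were within 1.1 times of each other. The points share the library and its depth, and the correlations are given as descriptions.

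**Figure D2:**
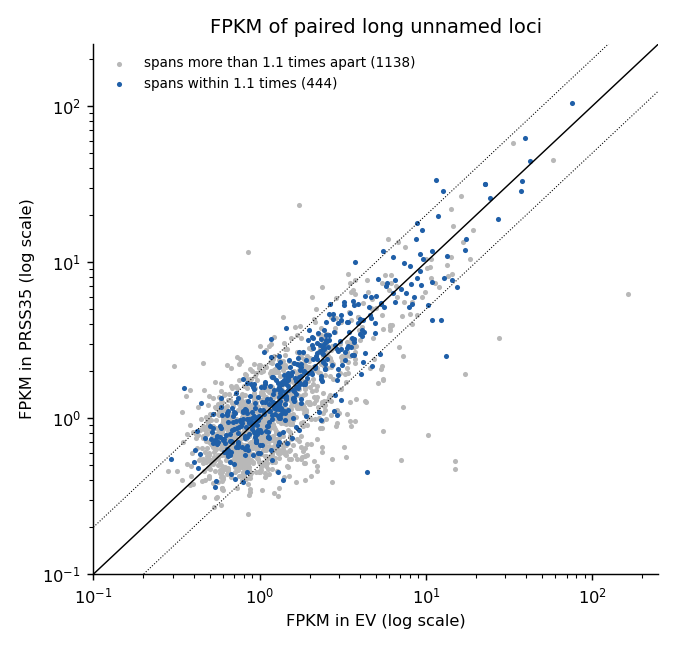
FPKM of 1582 paired long unnamed loci in EV (x axis) and PRSS35 (y axis), both on log scales, with blue points for the 444 pairs whose spans are within 1.1 times of each other and gray points for the rest. The solid line marks equal values and the dotted lines 2-fold. Blue points lie closer to the line than gray ones, and the far right point, 163 in EV and 6.23 in PRSS35, is the GABRQ pair whose EV interval starts at 0.

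The most abundant pair lay in the T cell receptor beta constant region. On chr7:142494192-142499087, it lay over exons of TRBC2, its joining segments and the lncRNA gene ENSG00000290099. Its spans were 4896 bases in EV and 5014 in PRSS35, but its estimated lengths only 495 and 395 bases. Which of the overlapped genes the reads came from was not tested. The FPKM was 75.3 (interval 68.7 to 81.9) in EV and 104 (93.5 to 115) in PRSS35, a log2 change of 0.46. Changes here are the log2 ratio of PRSS35 to EV after 1 FPKM was added to each, which understates the change of weak loci. The implied fragments went the other way, 518 in EV and 379 in PRSS35. A pair over TRBV30, a variable segment of the same receptor, and the lncRNA gene ENSG00000289938 was at 22.6 in EV and 31.6 in PRSS35. It had 202 and 311 fragments. The nearest named locus, PRSS3P2, was listed at 0 in both libraries, as was PTPRC.

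Other abundant pairs lay in pseudogenes, a retroviral gene and exons of protein-coding genes. The PSPHP1 locus, a pseudogene of phosphoserine phosphatase, had an FPKM of 58.4 (53.6 to 63.3) in EV and 45.4 (42.0 to 48.8) in PRSS35, a log2 change of -0.36, while its implied fragments were 577 and 716. An ERVK3-1 locus, a gene derived from an endogenous retrovirus, had 42.3 (39.4 to 45.2) and 44.2 (41.3 to 47.1), with overlapping intervals. The NBPF-region locus had 37.7 (34.3 to 41.1) and 32.9 (30.04 to 35.7), also overlapping, and its span was repeated in full. The FAM222A locus had 37.2 (33.5 to 40.9) in EV and 28.6 (25.4 to 31.8) in PRSS35, with 405 and 321 fragments. The FAM222A gene as named was at 30.4 in both libraries. A locus over an exon of STK32C, a protein kinase gene, had 39.4 (33.8 to 45.1) in EV and 62.1 (51.9 to 72.3) in PRSS35. Its fragments were 198 and 147, at estimated lengths of 436 and 355 bases.

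A locus on chr2:13659606-13673508 stood apart among the abundant ones, since it lay 512467 bases from the nearest named locus and outside all GENCODE genes. Its FPKM was 33.6 (30.5 to 36.7) in EV and 58.4 (54.2 to 62.6) in PRSS35, a log2 change of 0.78. The implied fragments rose alike, from 468 to 767, at estimated lengths of 719 and 696 bases. The intervals do not meet, but they cover error within a library only.

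Between the libraries the pairs showed little common shift. Over 894 pairs with a mean FPKM of at least 1, the median log2 change was -0.02, with quartiles of -0.32 and 0.27. Over 10133 named genes with the same limit on mean FPKM, the median was 0.06, with quartiles of -0.10 and 0.22. Named genes were matched by name and could be at 0 in 1 library, whereas a pair needs an assembled locus in both. A rise of 2-fold or more in PRSS35 was seen in 13 pairs (1.45%), against 1.89% of named genes, and a fall of 2-fold or more in 41 pairs (4.59%), against 1.84%. Among the 2217 named genes as weak as most pairs, with a mean FPKM between 1 and 2.85, the upper quartile of the pairs, 2.57% were higher and 2.48% lower. The share of rises was thus below both of these backgrounds and the share of falls above both, although pairs and named genes were not selected alike. Intervals lay wholly higher in PRSS35 for 94 pairs (10.5%), against 24.7% of 10094 named genes, and wholly lower for 110 (12.3%), against 14.3%. An interval is narrower, relative to its FPKM, where more fragments stand behind it. These named genes were not limited to those as weak as the pairs, so the interval shares are not compared at like depth. Scaling each library to the same total FPKM, of which the short unnamed loci hold a large share, gave 114 higher and 13 lower of 955 pairs and a median of 0.46. The same scaling moved the median of named genes to 0.68, with 10.5% of them higher and 0.976% lower.

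FPKM depends on the length that the assembler gave a locus, and the spans moved with the changes. Where the span was over 1.5 times longer in PRSS35, the median log2 change was -0.35 (n = 161). Where it was over 1.5 times longer in EV, it was 0.31 (n = 94). Where the spans were within 1.1 times, it was 0.04 (n = 308), with 3 pairs higher and 5 lower. Of the 41 pairs lower by 2-fold, 27 had spans more than 1.5 times apart, and so had 5 of the 13 higher ones. Of 874 pairs with both lower bounds above 0, FPKM and implied fragments changed in opposite directions in 278 (31.8%).

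**Figure D3:**
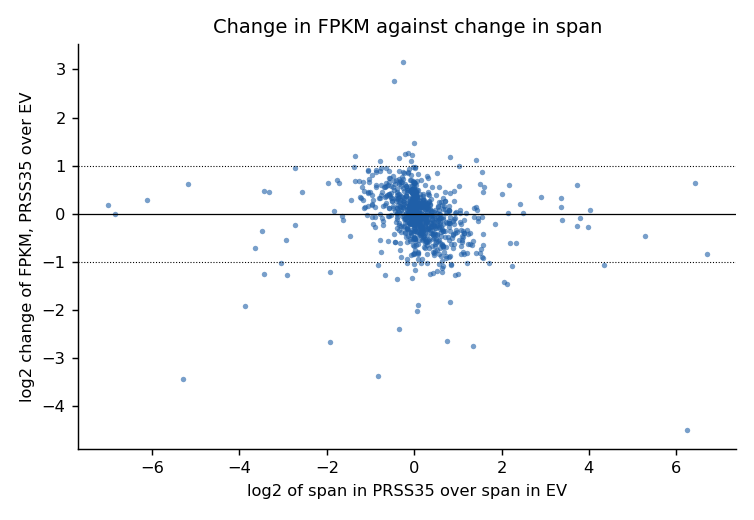
Change in FPKM (y axis, log2 of PRSS35 over EV after adding 1 FPKM) against the change in span (x axis, log2 of span in PRSS35 over span in EV) for the 894 pairs with a mean FPKM of at least 1. Dotted lines mark 2-fold. Points near 0 on the x axis are mostly within the dotted lines, and the changes past -2 include pairs with spans far apart.

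The 4 largest rises did not reach 2-fold when the implied fragments of all unnamed loci of the region were added up. Inside an intron of ZNF675, a zinc finger gene on chromosome 19, the paired locus had an FPKM of 1.72 (1.29 to 2.14) in EV and 23.1 (21.2 to 24.9) in PRSS35, a log2 change of 3.15. In EV the stretch held 3 overlapping unnamed loci, the paired one with 65.4 implied fragments, one with 38.9, and one at 8.84 FPKM with 545. The paired EV locus, of 8611 bases, contained the others and was longer than the PRSS35 locus of 7175 bases. The sum over these loci was 650 fragments in EV against 651 in PRSS35, where the stretch held 1 locus. This sum adds loci that overlap and whose strands are not known. At MAP3K2 and its divergent transcript MAP3K2-DT the pair had 0.852 (0.354 to 1.35) and 11.5 (8.51 to 14.6), a log2 change of 2.76, while the region held 92.5 fragments in 3 loci in EV and 98.1 in 2 loci in PRSS35. Beside MAPK9, the kinase JNK2, the ENSG00000248367 locus had 11.4 (8.68 to 14.2) and 33.4 (26.7 to 40.2), a log2 change of 1.47, with 176 fragments in the region in EV and 128 in PRSS35. The NLGN2 pair, in a synaptic adhesion gene, had 0.306 (0.0858 to 0.526) and 2.14 (1.72 to 2.57), with 72.3 and 101.4 fragments in its region.

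In the summed fragments of their region, 56 of all 894 pairs were higher by 2-fold and 60 lower. Of the 13 pairs higher by 2-fold, 3 were also higher by 2-fold in the summed fragments of their region, and 3 were lower in them. The locus near LINC00851 was one, with an FPKM of 2.36 (1.45 to 3.26) in EV and 6.96 (5.13 to 8.78) in PRSS35, and 26.9 and 58.2 fragments. Its EV span was repeated at 81.0%. Another, outside annotated genes among the immunoglobulin heavy chain variable genes on chr14:106856378-106857196, had 3.72 (2.60 to 4.83) in EV and 10.0 (8.46 to 11.6) in PRSS35, with 44.5 and 163 fragments and spans of 819 and 795 bases. Its EV span was repeated at 71.1%. The last, nearest to CLEC18C on chromosome 16, had 0.458 and 2.25, with 10.0 and 37.6 fragments.

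Among the 41 lower pairs the largest falls rested on few fragments or broad intervals. The GABRQ pair, over a GABA receptor subunit gene and MAGEA3-DT on chromosome X, had 163 in EV, with an interval from 0 to 42141, and 6.23 (4.40 to 8.06) in PRSS35, at spans of 1637 and 124008 bases. The pair across IGHV genes on chromosome 14 had 15.01 in EV, with an interval from 0 to 467, and 0.470 (0.289 to 0.651) in PRSS35. For these 2 pairs the intervals overlap. ZNF846, a zinc finger gene, had a pair at 14.8 (6.24 to 23.5) and 0.531 (0.266 to 0.797), but its implied fragments were 11.9 in EV and 16.0 in PRSS35. The PLEKHG4B pair had 27.5 (17.1 to 37.9) and 3.25 (1.15 to 5.35), with 28.0 and 9.59 fragments. MIB1, a ubiquitin ligase of Notch ligands, had a pair at 10.3 (7.01 to 13.7) and 0.782 (0.329 to 1.24), with 38.7 fragments in the region in EV and 46.6 in PRSS35.

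Over all 894 pairs, 60 were lower and 56 higher by 2-fold in summed fragments. Of the 41 lower pairs, 16 were also lower by 2-fold in the summed fragments of their region, 14 of them with both lower bounds above 0. In the same sums 17 were higher. Among the 17 were the GABRQ pair, the pair across IGHV genes and a pair nearest to SLC26A1, each with a lower bound of 0. Beside CTDSP2, which encodes a phosphatase of the RNA polymerase II tail, a locus on chr12:58241137-58241716 had 13.2 (10.8 to 15.6) in EV and 2.51 (1.52 to 3.50) in PRSS35, a log2 change of -2.02, with 125 and 25.8 fragments. It lay 389 bases upstream of CTDSP2, which itself was at 20.4 in EV and 24.4 in PRSS35. A locus over the pseudogene ENSG00000285115, upstream of ZFP37, had 12.2 (11.1 to 13.4) and 4.24 (3.62 to 4.87), a log2 change of -1.33, with 455 and 184 fragments. ZFP37, a zinc finger gene, was at 0.254 and 0.301. An NBPF-region locus, the only pair with identical ends, on chr1:145396316-145396823, had 15.4 (12.5 to 18.3) and 6.93 (4.96 to 8.90), a log2 change of -1.05, with 112 and 49.3 fragments. These 3 pairs had spans within 1.1 times of each other, and their EV spans were repeated at 40.1%, 45.6% and 57.2%.

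Upstream of the named TIAM1 locus lay a pair over exons of TIAM1, an activator of the GTPase Rac, and of TIAM1-AS1. Its FPKM was 4.41 (3.39 to 5.43) in EV and 0.451 (0.176 to 0.726) in PRSS35, with 74.6 and 10.8 fragments. All unnamed loci of the region summed to 101.1 and 117.7. An SAT1 pair, beside the gene of a polyamine acetyltransferase, had 6.84 and 2.84, with 106 and 34.7 fragments. The LMNB2 pair, named for a nuclear lamin, had 5.55 and 1.78, with 175 and 81.9 fragments. The CLEC18C, CTDSP2, ZFP37, TIAM1, SAT1, LMNB2 and TRBV30 pairs, the NBPF-region pair with identical ends and the immunoglobulin-region pair of 819 bases were picked after their values were known, as were the lncRNA pairs named last.

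The longest pairs were thin transcripts over wide stretches. At HMGN2P11, a pseudogene of the nucleosome protein HMGN2, the span was 218996 bases in EV and 232412 in PRSS35, with an FPKM of 14.4 (12.1 to 16.6) and 7.62 (6.34 to 8.91). Its fragments differed less, 162 and 141, at estimated lengths of 635 and 866 bases. A pair in PDE4D, a phosphodiesterase of cyclic AMP, spanned 126192 and 126991 bases and had 10.9 (8.67 to 13.1) and 4.28 (3.57 to 4.997), a log2 change of -1.17. Its fragments were 97.6 in EV and 145 in PRSS35, and its estimated lengths 562 and 1351 bases. Near ZNF281 a pair at unnamed lncRNA genes spanned 68824 and 62812 bases and had 17.1 (14.2 to 19.98) and 12.01 (10.03 to 13.99), with 138 and 147 fragments. In all 3, FPKM was lower in PRSS35 and the estimated length was greater, but that length is computed from fragments over FPKM. It is therefore no separate measure of the change. The chromosome 1 pair that spanned 212415 bases in PRSS35, also among the 5 longest, went the other way. It had 0.669 and 1.60 FPKM, at estimated lengths of 2455 and 1545 bases. The GABRQ pair, the last of the 5, moved like the 3, but its EV interval starts at 0.

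The 5 pairs most remote from any named locus of the tables had an FPKM of at most 2.86, and 2 of them lay in introns of lncRNA genes of GENCODE. Remote members were not weaker as a class. Over 100000 bases away the median FPKM was 1.36 in EV and 1.12 in PRSS35, the highest of the distance classes. On chr3:83265832-83267292, 1420263 bases from the nearest named locus, LINC00971, the FPKM was 2.31 (1.81 to 2.81) in EV and 2.86 (2.34 to 3.37) in PRSS35. On chromosome 13, 786401 bases from SLITRK1, a pair had 0.555 (0.365 to 0.745) and 0.754 (0.525 to 0.983). Of the 5 most remote pairs, 3 lay in 1 stretch of chromosome 1 between LINC01031 and KCNT2, both listed at 0. There EV held 6 members, from 0.556 to 3.73 FPKM, and PRSS35 held 5, from 0.454 to 2.18, of which 1 spanned 212415 bases from chr1:194616236-194828650 and bridged loci that were separate in EV. It was paired with an EV locus of 2462 bases, at 0.669 in EV and 1.60 in PRSS35. Intervals overlapped in the other 4 of the 5 most remote pairs.

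Grouped by the GENCODE names of the exons they overlap, the members included several kinds of noncoding RNA, in groups formed after the values were known. Divergent transcripts, whose names end in -DT, were met by 88 members in EV and 84 in PRSS35, with a median FPKM of 1.36 and 1.23, and of the 41 pairs compared 2 were higher and 5 lower by 2-fold. Antisense genes were met by 102 and 109 members, with 0 of 33 pairs higher and 4 lower. Host genes, whose names start with SNHG or end in HG, were met by 19 and 17 members, with 0 of 6 pairs higher and 2 lower. LINC genes, long intergenic noncoding RNAs, were met by 88 members in each library, with 0 of 32 pairs past 2-fold in either direction and a median log2 change of 0.11. Genes with only an Ensembl number were met by 560 and 583 members, with 4 of 214 pairs higher and 13 lower. Over all 894 pairs 1.45% were higher and 4.59% lower, and no group was tested against that share.

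Single lncRNA loci with a mean FPKM of at least 5 spanned both directions. SNHG30, which hosts the small nucleolar RNA SNORD7, had a pair at 24.2 in EV and 25.9 in PRSS35, and LINC03011 one at 22.7 and 31.9. TBC1D22A-DT was at 9.49 and 15.9, and EMSY-DT at 14.2 and 10.7. PCCA-DT, beside the gene of a propionyl-CoA carboxylase subunit, was at 5.92 and 14.0, but its region held 300.002 fragments in EV and 327 in PRSS35. Of all 112 pairs at this level, 7 were higher and 10 lower by 2-fold. Of the 30 at lncRNA exons with no protein-coding exon, 3 were higher and 0 lower, with a median log2 change of 0.22. Of the 38 at exons of protein-coding genes 1 was higher and 6 lower, with a median of -0.23. Pairs over both kinds of exon were counted as protein-coding. The GABRQ and MAGEA3-DT pair was one of these, and so was a ZNF8-DT pair at 17.2 in EV and 1.91 in PRSS35. The spans of the ZNF8-DT pair were 1.70 times apart, and the unnamed loci of its region held 38.1 fragments in EV and 82.9 in PRSS35. Of the 21 outside annotated genes 1 was higher and 2 lower, with a median of -0.36. Over the 894 pairs compared the medians of these classes lay closer together, at 0.03 (n = 244), -0.01 (n = 273) and -0.09 (n = 179).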

How the data were processed

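RNA of PLC cells with the empty vector (EV) or PRSS35 was sequenced, 1 library each. The authors prepared libraries with the NEBNext Ultra kit, aligned reads to hg19 with TopHat2 2.1.0 and estimated transcripts with Cufflinks (the submitters' processing notes name Cuffdiff 2.2.1), and deposited the FPKM of each locus with its lower and upper bound. The annotation release and the options are not given in the sources used here. No counts were used and no count model was fitted. The submitters' notes list dm6 beside hg19; no locus ran past the end of a GRCh37 chromosome, and over 99.6% of named loci with a GENCODE symbol overlapped that gene in position.

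The members, lists and alternatives were chosen with earlier results of these data known. Starts were moved to count from 1. Members were paired between tables where each shared most bases with the other (at least 1 base), and compared where the mean FPKM was at least 1, with a pseudocount of 1 FPKM and a 2-fold threshold. Named genes were matched by name and their loci summed. Intervals were compared for names with 1 locus in each table. The pairs named are the 8 with the highest mean FPKM, the 5 with the largest change in each direction, the 5 longest and the 5 farthest from a named locus, with the 3 highest members per library that had no partner and those next to the length limit. Sequences were shown in that order where no annotated UTR or protein-coding exon overlapped. Some sequences and genes are not reported here.

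The implied fragments and the transcript length estimated from them were calibrated on 29 (EV) and 34 (PRSS35) annotated genes of 1 exon. A median of 20 fragments per member limits the precision, and the bounds hold no variation between cultures. Repeated windows were counted over GRCh37 on both strands, and gene features came from GENCODE v44lift37. The pairing and the calls were tested on simulated data with no overlapping loci and with ends moved by up to 50 bases. That test did not cover loci that are split or joined between libraries, or spans far apart. Alternatives were lengths above 300 or 1000 bases, members at an FPKM of at least 1, a shared 50%, pseudocounts of 0.1 and 5 FPKM, scaling by sums, a minimum mean FPKM of 5 or none, a 1.5-fold threshold and expressed named neighbors. Lower bounds above 0, spans within 1.1 times, implied fragments in place of FPKM and fragments summed over a region were added after the data had been seen. The software was Python 3.11.15 with scipy 1.17.1, pandas 2.3.3, numpy 2.4.6 and matplotlib 3.10.9.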

Additional observations from a re-analysis of the deposited data

How the results depend on the processing

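No paired analysis was possible because EV and PRSS35 have 1 library each. For the same reason no library could be left out. Of 62 recomputed values, 31 stayed within 1.5 times of the reported value or, for the median log2 change, within 0.1. With spans above 1000 bases, 1371 members in EV, 1595 in PRSS35 and 763 pairs were left, with 8 pairs higher and 17 lower by 2-fold and a median distance of 1351 bases in PRSS35. With spans above 300 bases, 43 pairs were higher and 101 lower. With members at an FPKM of at least 1, 1640 members in EV, 1418 in PRSS35 and 709 pairs were left, and in PRSS35 the median FPKM was 1.67 and the median distance 554.5 bases. Where pairs had to share 50% of each locus, 23 were lower. A pseudocount of 0.1 FPKM gave 56 higher and 93 lower, and one of 5 FPKM gave 3 and 8. Dividing by the FPKM sum over all loci gave a median log2 change of 0.46, 114 higher and 13 lower. A minimum mean FPKM of 5 left 7 higher and 10 lower, and at 1.5-fold 85 and 115. To named loci at an FPKM of at least 1, the median distance was 2287 bases in EV and 2376 bases in PRSS35. Of the alternatives added after the data had been seen, spans within 1.1 times of each other left 3 higher and 5 lower, and implied fragments in place of FPKM gave 70 and 65. The stricter length, FPKM and span settings keep fewer members by construction. The cause of the other moves was not tested. Calls past 2-fold among these loci therefore depend on the setting, and falls outnumbered rises except under scaling by all loci and in implied fragments. The median of 20 fragments per member limits what a single pair can show.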
